A study of Mus musculus with 8 samples.

Results

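Hearts of mice homozygous for a deletion of a conserved Actn2 enhancer were compared with hearts of wild-type mice, both at postnatal day 40. The comparison used 5 of the 8 libraries of the series: 3 homozygous and 2 wild type, chosen by the genotype that the labels give. The mice were made with CRISPR/Cas9, and per the labels the hearts came from 1 litter. Whole-heart RNA taken with Trizol was made into libraries with a TruSeq kit and read by bulk RNA sequencing. The 3 heterozygous hearts of the same age entered the statistical fit, to which they lend their spread between samples. Their levels are otherwise given only for Xirp2 and Prg4, where heterozygous 1 stood apart. That library also stood apart in other genes, among them Ankrd1 and Csrp3, and it adds to the spread behind their p-values. Neither the extent of the deletion nor the number of founder lines is given in the sources used here, and no Cre or other means of limiting the deletion to 1 cell type is named. Per the series' design text the reads of both wild-type libraries were lost to file corruption, so their counts cannot be remade. The labels do not say that each library is a separate animal beyond naming the litter, so p-values measure the spread between these samples.

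Alpha-actinins are rod-shaped proteins that cross-link antiparallel actin filaments. In striated muscle, alpha-actinin 2 anchors the ends of thin filaments and of titin at the Z-disc, the border between neighbouring sarcomeres, and serves there as a dock for many signalling and adaptor proteins. An enhancer is a stretch of DNA that raises transcription of a gene at a distance, and many heart genes are driven by several of them.

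Of 24516 genes in the count table, 15075 had enough counts to be tested. Levels are given as CPM, counts relative to the size of the library, scaled by TMM, edgeR's factor for differences in library make-up, in the order homozygous 1, 2 and 3 against wild type 1 and 2. Library totals ran from 25017723 counts in wild type 1 to 55902737 in homozygous 2. Both genotypes held Xist-high and Xist-low libraries, homozygous 2 and wild type 2 being the high ones. Wild type 2 stood apart from all other libraries: on the first principal component (35.9% of the variance of 1000 variable genes) it lay at 61.41, wild type 1 at 10.83 and the homozygous hearts from -14.15 to -7.87. The median absolute log2 difference over all genes was 0.335 between the wild-type hearts and 0.16 to 0.181 between pairs of homozygous hearts. Results are therefore also given without wild type 2; the 1 wild-type library that remains is then assumed to vary like the other groups.

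With p-values from edgeR's quasi-likelihood test, adjusted by the Benjamini-Hochberg method across every gene tested, 4180 genes (27.7%) passed at 0.05. Of these, 2308 (15.3% of the genes tested) were higher and 1872 (12.4%) lower in homozygous hearts. The change was at least 2-fold in 1217 genes (8.07%), of which 740 were higher (4.91%) and 477 lower (3.16%), at least 4-fold in 123 higher and 67 lower genes, and under 1.5-fold in 937. The 3 homozygous values lay wholly above or wholly below both wild-type values in 4172 of the 4180 genes, and in 8263 (54.8%) of all genes tested, above in 27.6% and below in 27.2%. Without wild type 2, 1577 genes were higher (10.1%) and 558 lower (3.58%).

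Fold changes followed the length and base composition of transcripts, as described after the gene groups. A second fit removed, in each library, the trend of the counts with GC content and with the length of the transcript and of its 3′ UTR, and is called the corrected fit here. It called 1178 genes higher (8.35%) and 795 lower (5.64%) of 14102. A gene is called stable below if it passed in the same direction in 7 further fits: with each of the 5 libraries left out in turn, with DESeq2, and in the corrected fit. There were 941 stable genes (6.24%), of which 742 were higher (4.92%) and 199 lower (1.32%). They make up 32.1% of the higher and 10.6% of the lower genes. In the plot of all genes against their level, most stable genes lie above the line of no change.

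**Figure D1:**
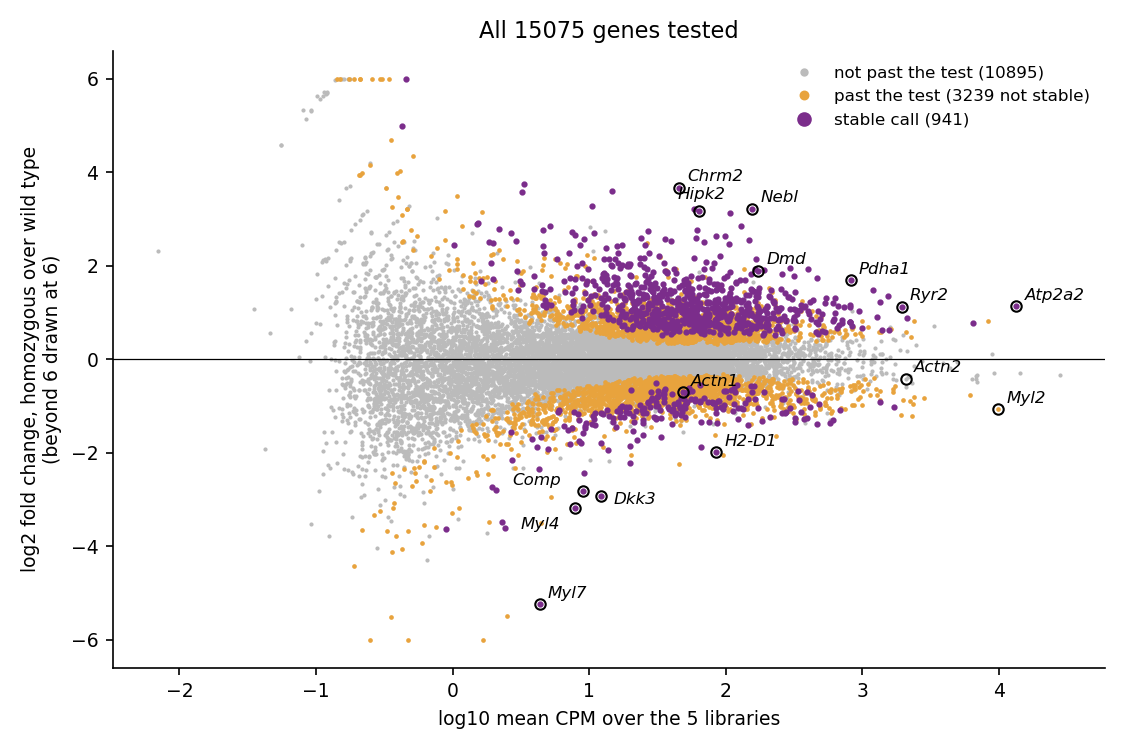
Log2 fold change of homozygous over wild-type hearts against the log10 mean CPM of the 5 libraries for all 15075 genes tested; grey points did not pass edgeR's test, orange points passed, and purple points are the 941 stable genes. Values beyond 6 are drawn at 6 and named genes are circled; Chrm2, Nebl and Hipk2 are among the highest stable points, Myl7 is the lowest circled one, and Actn2 lies among genes that did not pass.

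Actn2 itself (ENSMUSG00000052374.16, chromosome 13, 12269426 to 12340760, minus strand, mm10) did not pass edgeR's test. Its level was 2115, 1611 and 1791 CPM in the homozygous hearts and 2187 and 2703 CPM in the wild-type hearts. The groups did not overlap, but homozygous 1 lay close below wild type 1 and the spread within each genotype was wide. On the log2 scale homozygous hearts differed by -0.41 with an SE of 0.16 (edgeR, adjusted p = 0.0771), -0.22 without wild type 2 (adjusted p = 0.435) and -0.08 in the corrected fit (adjusted p = 0.735). DESeq2 gave -0.41 as well, and there the fall passed (DESeq2, adjusted p = 0.0342). Which bases were removed cannot be read from gene counts, so these values do not check the genotype labels.

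Among the other alpha-actinin genes, Actn1 (ENSMUSG00000015143.15, chromosome 12, 80167547 to 80260371), which encodes an alpha-actinin of non-muscle cells, fell. It measured 38.6, 39.6 and 37.9 CPM against 70.6 and 54.9 CPM, and its log2 value changed by -0.70 with an SE of 0.13 (edgeR, adjusted p = 0.00358). All 3 homozygous values were within 2 CPM of each other and below both wild-type values, and the fall was stable. Actn4, the other non-muscle member, had 153, 148 and 132 CPM against 186 and 162 CPM and did not pass (log2 fold change -0.27, SE 0.14, adjusted p = 0.158). Actn3, the form of fast skeletal muscle fibres, had too few counts to be tested.

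The 12 largest stable rises among genes with a mean of at least 5 CPM included a neurotransmitter receptor, enzymes and a Z-disc protein. Chrm2 (ENSMUSG00000045613.9, chromosome 6, 36388084 to 36528414), the M2 muscarinic acetylcholine receptor through which the vagus nerve slows the heart, had 62.1, 83.8 and 69.8 CPM in homozygous hearts and 7.48 and 3.85 CPM in wild-type hearts. It rose 12.8-fold (log2 fold change 3.67, SE 0.27, adjusted p = 6.47e-05, edgeR). Every homozygous value was more than 8 times the higher wild-type value. Nt5c1a (ENSMUSG00000054958.6, chromosome 4, 123201504 to 123216275), a cytosolic nucleotidase that makes adenosine from AMP, measured 23.8, 20.3 and 26.1 CPM against 1.93 and 1.91 CPM, a rise of 12.2-fold (log2 3.604, SE 0.19, adjusted p = 1.50e-05). Here the wild-type values were almost the same, and the fold change without wild type 2 was 3.63 on the log2 scale, and in the corrected fit 4.21 (adjusted p = 1.12e-05).

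Nebl (ENSMUSG00000053702.16, chromosome 2, 17343909 to 17731464), which encodes nebulette, an actin-binding protein at the cardiac Z-disc, was at 213, 256 and 259.7 CPM against 33 and 19.1 CPM. It rose 9.33-fold (log2 3.22, SE 0.24, adjusted p = 4.97e-05, edgeR), and by 2.46 on the log2 scale in the corrected fit. Ppp1r12b, a myosin phosphatase regulatory subunit of striated muscle, went from 23.2 and 14.9 CPM to 169.9, 167 and 166 CPM, a rise of 8.803-fold (adjusted p = 2.04e-05). The homozygous values of Ppp1r12b were nearly equal, while wild type 1 was above wild type 2. Pdpr, the regulatory subunit of the pyruvate dehydrogenase phosphatase, rose 9.26-fold from 12.2 and 7.38 CPM to 90.5, 84.3 and 96.7 CPM (adjusted p = 2.04e-05). Hipk2, a nuclear kinase that acts on p53 and other transcription regulators, had the smallest p of these genes: 100.5, 95.1 and 100 CPM against 9.99 and 11.99 CPM, 8.96-fold (adjusted p = 4.78e-06).

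The remaining 6 of the 12 largest stable rises ran from 2.71 to 3.27 on the log2 scale. Lmbrd2, a membrane protein linked to receptor signalling, rose from 1.62 and 1.73 CPM to 15.4, 15.4 and 18.1 CPM (adjusted p = 1.98e-05, edgeR; log2 2.38 in the corrected fit). Lnpep, an aminopeptidase that travels with the glucose transporter GLUT4, rose from 35.8 and 19.3 CPM to 192, 186 and 219 CPM (adjusted p = 0.000119; log2 1.98 in the corrected fit). Ppm1l, a protein phosphatase of the stress kinase pathway, rose from 6.71 and 5.61 CPM to 46.6, 35.8 and 40.9 CPM (adjusted p = 5.38e-05). Foxo3, a transcription factor held in check by insulin signalling, was at 105, 73.9 and 103 CPM against 19.9 and 7.73 CPM, and its 2 wild-type values differed more in proportion than the homozygous ones (adjusted p = 0.00102). Srp54a, a subunit of the signal recognition particle, rose from 1.504 and 0.693 CPM to 8.34, 7.74 and 7.47 CPM (adjusted p = 0.000413); near-identical copies lie next to it, so its count is uncertain. Zfp369, a zinc finger gene, rose from 3.93 and 1.14 CPM to 15.8, 18.3 and 15.4 CPM (adjusted p = 0.00157; log2 2.101 without wild type 2). Leaving out wild type 1 gave larger log2 rises for Srp54a (3.5), Foxo3 (3.61) and Zfp369 (3.85).

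The 12 largest stable falls were chosen among genes with a mean of at least 5 CPM. Myl4 (ENSMUSG00000061086.12, chromosome 11, 104550663 to 104595753), the essential myosin light chain of atrial muscle, had 1.83, 2.75 and 0.915 CPM against 11.1 and 22.8 CPM, and fell by 3.19 on the log2 scale (SE 0.47, adjusted p = 0.00151, edgeR). Its log2 value was -2.54 without wild type 2 (adjusted p = 0.00951) and -2.54 in the corrected fit (adjusted p = 0.00518). Dkk3, a secreted protein of the Dickkopf family and 1 of the atrial markers used here, had 2.81, 4.84 and 2.36 CPM against 24.1 and 27.1 CPM and fell by 2.92 (SE 0.33, adjusted p = 0.000396). Neither gene had a homozygous value that reached the lower wild-type one. In bulk RNA of heart tissue, fewer cells of a type and less RNA per cell cannot be told apart.

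Comp, a matrix protein of cartilage and tendon, fell from 17.3 and 20.2 CPM to 2.14, 3.07 and 2.71 CPM (log2 -2.82, SE 0.30, adjusted p = 0.000293, edgeR). Ltbp2, a microfibril-associated protein, fell from 17.8 and 18.1 CPM to 3.76, 2.405 and 3.87 CPM (log2 -2.43, adjusted p = 0.00358). Mfap4, an elastic fibre glycoprotein, fell from 31.5 and 44.4 CPM to 7.82, 10.8 and 5.67 CPM (log2 -2.23, adjusted p = 0.00059). Fmod, which encodes fibromodulin, a collagen-binding proteoglycan, fell from 18.8 and 11.8 CPM to 5.04, 4.84 and 3.42 CPM (log2 -1.78, adjusted p = 0.00122). In each of these 4 matrix genes all homozygous values were well below the lower wild-type value. Myoc, the secreted glycoprotein myocilin, and Scara3, a scavenger receptor family member, fell by 1.81 and 1.92 on the log2 scale (adjusted p = 0.00218 and 0.00319).

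Several stable falls were smaller without wild type 2. Myh11, the smooth muscle myosin heavy chain, had 37.01, 29.7 and 27.8 CPM against 70.3 and 162 CPM. Its log2 fold change of -1.88 (adjusted p = 0.00611, edgeR) was -1.13 without wild type 2 (adjusted p = 0.0494). H2-D1, a class I histocompatibility gene, had 38.7, 43.9 and 34.2 CPM against 100.4 and 208 CPM, and its log2 fold change of -1.99 (adjusted p = 0.000698) was -1.33 without that library. C4b, a complement component, went from -1.86 (adjusted p = 0.00414) to -1.32 in the same way, and Plppr2, a membrane protein of the lipid phosphatase family, from -1.95 (adjusted p = 0.00587) to -0.91. H2-D1 and C4b have near-identical relatives in the genome, so their counts are uncertain.

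**Figure D2:**
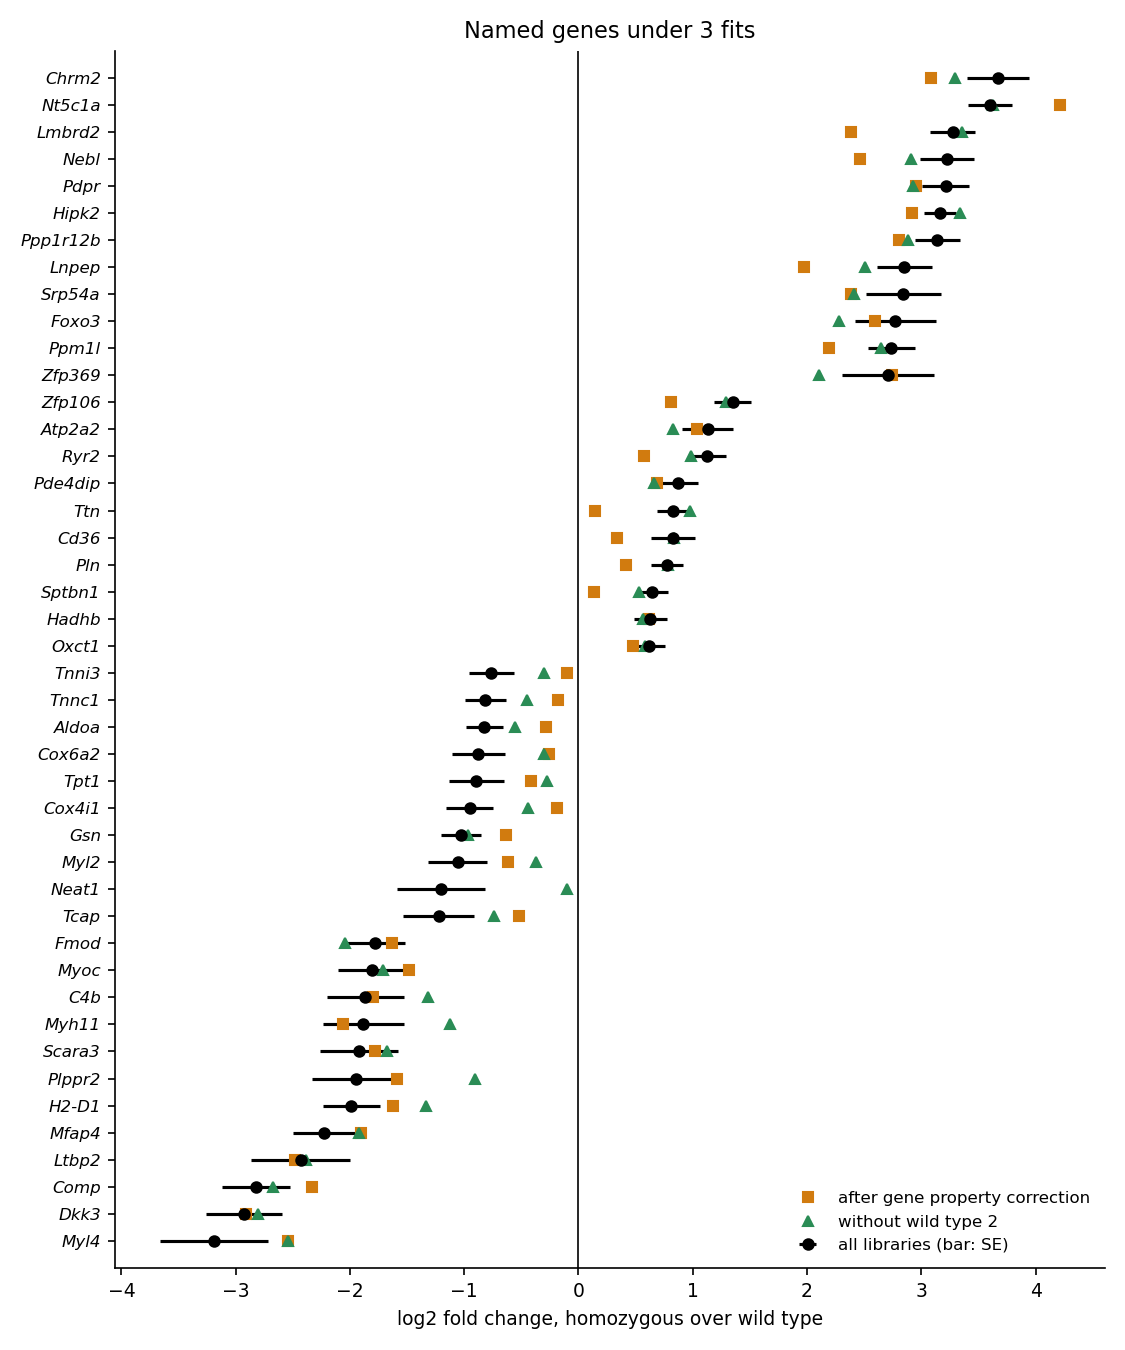
Log2 fold change of homozygous over wild-type hearts for the 24 largest stable changes and the 20 most abundant changed genes: black points with SE bars use all libraries, orange squares are the corrected fit and green triangles leave out wild type 2. The 12 largest stable rises keep values above 1.9 in each fit, while Tnni3, Tnnc1, Cox6a2 and Cox4i1 move from below -0.7 to above -0.5 in both other fits; Neat1 has no value in the corrected fit.

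The 10 most abundant genes that rose at least 1.5-fold included Atp2a2, Pln and Ryr2 of calcium handling, described further with that list, and Cd36 and Hadhb of fat metabolism. Atp2a2, the calcium pump that refills the sarcoplasmic reticulum, was at 19336, 16272 and 15588 CPM against 9817 and 5779 CPM, and without wild type 2 its log2 rise went from 1.13 to 0.83 (adjusted p = 0.0104, edgeR). Cd36, a fatty acid transporter, rose from 1651 and 1608 CPM to 2809, 2695 and 3158 CPM (1.77-fold, adjusted p = 0.0112), and did not pass in the corrected fit (adjusted p = 0.217). Hadhb, a subunit of the mitochondrial trifunctional protein of beta oxidation, rose 1.55-fold (adjusted p = 0.0107), and Oxct1, which starts the breakdown of ketone bodies, rose 1.54-fold (adjusted p = 0.00761). Both of these rises were stable. Pde4dip, a scaffold also called myomegalin, rose 1.83-fold (adjusted p = 0.00489), and Zfp106, an RNA-binding zinc finger protein needed by motor neurons and muscle, rose 2.55-fold from 852 and 742 CPM to 2029, 2032 and 2034 CPM (adjusted p = 0.000525); both were stable.

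Most of the abundant genes that fell encode small proteins of the sarcomere, glycolysis and the respiratory chain. Myl2, the ventricular regulatory light chain, had 6574, 6696 and 7395 CPM against 9128 and 19551 CPM, so that wild type 2 was more than 2 times wild type 1. Its log2 fold change of -1.06 (SE 0.26, adjusted p = 0.0133, edgeR) was -0.37 without wild type 2 (adjusted p = 0.139) and -0.62 in the corrected fit (adjusted p = 0.0693). The glycolytic enzyme Aldoa (-0.82, adjusted p = 0.00516) kept its call without wild type 2 (-0.56, adjusted p = 0.0322) but not in the corrected fit (-0.29, adjusted p = 0.2). The cytochrome oxidase subunits Cox4i1 (-0.95, adjusted p = 0.00775) and Cox6a2 (-0.88, adjusted p = 0.018) lost the call in both ways (-0.45 and -0.30 without wild type 2, adjusted p = 0.0559 and 0.235; -0.19 and -0.26 in the corrected fit, adjusted p = 0.363 and 0.289). Tpt1, a translationally controlled protein, did so too (-0.89, adjusted p = 0.0199, -0.27 without wild type 2, adjusted p = 0.275, and -0.41 in the corrected fit, adjusted p = 0.194). Gsn, the actin-severing protein gelsolin, was the 1 stable fall of these 10 (1349, 1272 and 978 CPM against 2404 and 2492 CPM, log2 -1.03, adjusted p = 0.00276).

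Gene lists around alpha-actinin and heart function were then read one by one, each beside the share of all tested genes that passed, 15.3% higher and 12.4% lower, and beside the median log2 fold change of all genes, -0.03. Of 41 tested genes of the Z-disc and alpha-actinin partners, 7 rose and 6 fell, shares close to those of all genes (median -0.15; 5 and 3 without wild type 2 and 6 and 2 in the corrected fit). Among the anchors, Capza2, the alpha 2 subunit of the actin capping protein CapZ, rose from 135 and 107 CPM to 209, 234 and 229 CPM (log2 0.89, SE 0.14, adjusted p = 0.00174, edgeR) and was stable. Ttn, the giant spring protein titin, rose 1.78-fold (adjusted p = 0.00276), to 9298, 10205 and 10491 CPM from 5197 and 6056 CPM, but had a log2 fold change of 0.15 in the corrected fit (adjusted p = 0.476). Tcap, the cap of titin at the Z-disc, fell by 1.22 on the log2 scale (adjusted p = 0.0172), and did not pass without wild type 2 (-0.74, adjusted p = 0.253) or in the corrected fit (-0.52, adjusted p = 0.252).

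The PDZ and LIM adaptors of the Z-disc differed in direction. Pdlim3, an alpha-actinin-associated LIM protein, fell from 35.01 and 48.7 CPM to 9.92, 18.2 and 12.96 CPM (log2 -1.61, SE 0.24, adjusted p = 0.00136, edgeR) and was stable. Pdlim7, the enigma protein, fell by 0.86 (adjusted p = 0.0104) and Pdlim5 rose by 0.48 (adjusted p = 0.0482); neither passed without wild type 2 (adjusted p = 0.111 and 0.108) or in the corrected fit (adjusted p = 0.171 and 0.906). In the palladin and calcineurin-binding group 3 of 10 rose and 0 fell. Synpo2, an actin-bundling protein also called myopodin, rose from 45.9 and 44.3 CPM to 130.1, 122 and 126 CPM (log2 1.49, adjusted p = 0.000134), and Nexn, the filamentous actin-binding protein nexilin, rose 1.63-fold (adjusted p = 0.00431); both were stable. Palld, palladin itself, rose 1.504-fold (adjusted p = 0.0191) and missed the threshold without wild type 2 (adjusted p = 0.0865) and in the corrected fit (adjusted p = 0.0895). Of the stress and repeat proteins, the small heat shock protein Cryab (log2 -0.86, adjusted p = 0.00368, edgeR) and the co-chaperone Bag3 (-0.60, adjusted p = 0.0221) fell. Neither passed in the corrected fit (adjusted p = 0.111 and 0.279), nor did Bag3 without wild type 2 (-0.44). Xirp2, an actin-binding repeat protein, had 1052, 1007 and 1118 CPM against 511 and 523 CPM, without overlap, but did not pass (log2 1.03, SE 0.41, adjusted p = 0.0936, edgeR). The heterozygous hearts, whose spread enters the fit, were at 2647, 989 and 936 CPM.

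In the thick filament and M-band, 6 of 19 genes rose and 3 fell (median 0.12; 5 and 1 without wild type 2 and 4 and 2 in the corrected fit). The rises lay in regulators and in the M-band, the sarcomere's midline. Mylk3, the cardiac myosin light chain kinase, rose from 433 and 399 CPM to 646, 738 and 812 CPM (1.76-fold, SE of the log2 value 0.19, adjusted p = 0.00987, edgeR). Cmya5, called myospryn, a large scaffold that binds alpha-actinin, rose 2.18-fold from 446 and 406 CPM to 966, 866 and 957 CPM (adjusted p = 0.000931). Myh7b, a minor myosin heavy chain gene, fell from 629.7 and 509 CPM to 308, 318 and 379.6 CPM (log2 -0.76, adjusted p = 0.012). These 3 changes were stable, and the groups did not overlap in any of them. Lrrc39, a myosin-binding M-band protein, rose by 0.57 (adjusted p = 0.015) and lost its call in the corrected fit (adjusted p = 0.228). Myh7, the slow myosin heavy chain, fell by 0.68 (adjusted p = 0.0228; corrected fit adjusted p = 0.0236) and did not pass without wild type 2 (-0.40, adjusted p = 0.205). Of the other abundant thick filament genes, Myh6 and Mybpc3 had log2 values of -0.35 and -0.08 and did not pass.

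The thin filament split by role. Of 13 genes for actins, troponins and tropomyosins, 0 rose and 7 fell (median -0.82; 0 and 4 without wild type 2 and 0 and 4 in the corrected fit). Of 12 assembly factors 5 rose and 0 fell (median 0.43; 4 and 0 without wild type 2 and 5 and 0 in the corrected fit). Actb and Actg1, the cytoplasmic actins, measured 259.5, 259 and 195 CPM and 222, 277 and 230.4 CPM in homozygous hearts, against 453 and 703 CPM and 436 and 623 CPM. They fell by 1.28 and 1.12 on the log2 scale (SE 0.20 and 0.19, adjusted p = 0.00183 and 0.00233, edgeR), and both have many pseudogenes. The tropomyosins Tpm2 and Tpm3, the forms of smooth and slow skeletal muscle and of other cells, fell by 1.66 and 0.68 (adjusted p = 0.0028 and 0.00277). These 4 falls were stable. Tpm2 had 18.8, 18.4 and 16.9 CPM against 33.9 and 80.02 CPM, and its log2 value without wild type 2 was -0.88. The cardiac troponins Tnni3 and Tnnc1 fell by 0.76 and 0.82 (adjusted p = 0.0171 and 0.0083) but passed neither without wild type 2 (adjusted p = 0.188 and 0.067) nor in the corrected fit (-0.10 and -0.18, adjusted p = 0.659 and 0.354). Actc1, the cardiac actin, had a log2 value of 0.12 and did not pass.

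Among the assembly factors, Tmod1, which caps the pointed end of thin filaments, rose from 122 and 44.5 CPM to 248, 241 and 224 CPM (log2 1.52, SE 0.34, adjusted p = 0.0107, edgeR; 1.002 without wild type 2 and 2.42 without wild type 1). Fhod3, a formin that builds cardiac thin filaments, rose 2.06-fold (adjusted p = 0.00261) and Cap2, an actin monomer-binding protein, 1.59-fold (adjusted p = 0.00354). All 3 were stable. Daam1, another formin, rose 1.82-fold (adjusted p = 0.00761) and did not pass in the corrected fit (adjusted p = 0.153).

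The dystrophin complex, which ties the actin cytoskeleton through the membrane to the matrix, had 10 of 23 genes higher and 2 lower (median 0.70; 7 and 1 without wild type 2). Dmd, the X-linked gene of dystrophin, was at 232, 243 and 258 CPM against 73.8 and 57.6 CPM, a 3.72-fold rise (log2 1.895, SE 0.14, adjusted p = 5.60e-05, edgeR; 1.03 in the corrected fit). Sgcd, delta-sarcoglycan, rose 5.75-fold from 11.5 and 9.08 CPM to 56.6, 59.9 and 61.3 CPM (SE 0.14 for the log2 value of 2.52, adjusted p = 1.50e-05). For both of these genes the lowest homozygous value was more than 3 times the higher wild-type value.

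Dag1, the dystroglycan gene, rose 1.82-fold (adjusted p = 0.00765, edgeR). Sntb2, a syntrophin, rose 2.37-fold (adjusted p = 0.000716; log2 1.25, and 0.59 in the corrected fit). These rises, like those of Dmd and Sgcd, were stable, and the list held 6 stable rises in all. Utrn, the dystrophin relative utrophin, rose from 93.7 and 95.6 CPM to 173, 172 and 177 CPM (log2 0.88, adjusted p = 0.000638) and had 0.30 in the corrected fit (adjusted p = 0.135). Sspn, sarcospan, rose 2.23-fold (adjusted p = 0.0202) and missed the threshold both without wild type 2 (adjusted p = 0.123) and in the corrected fit (adjusted p = 0.0848). Sgca, alpha-sarcoglycan, fell by 0.45 (adjusted p = 0.0319) with 0.02 in the corrected fit. In that fit the list had 8 genes higher and 0 lower, with a median of 0.37.

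Of 24 genes of the intercalated disc, the junction that joins heart muscle cells end to end, 14 were higher and 0 lower (median 0.52; 8 and 0 without wild type 2). Ctnna3, the alpha-T-catenin of cardiac junctions, rose from 15.7 and 18.1 CPM to 48.03, 45.7 and 49.6 CPM (log2 1.5, SE 0.17, adjusted p = 0.00037, edgeR). Cdh2, N-cadherin, rose 1.91-fold (adjusted p = 0.00059), Tln2, talin 2, 2.01-fold (adjusted p = 0.00239) and Dsp, the desmosomal linker desmoplakin, 2.34-fold (adjusted p = 0.00181). Those 4 were the stable rises. Dsp measured 1823, 1581 and 1836 CPM against 915 and 576 CPM. The other desmosomal rises, of the cadherins Dsg2 and Dsc2 (1.72-fold and 1.62-fold, adjusted p = 0.00354 and 0.0171), did not pass in the corrected fit (adjusted p = 0.0736 and 0.389), nor did Dsc2 without wild type 2 (adjusted p = 0.0931). In the gap junction and ankyrin group 6 of 8 rose, among them the adaptors Ank2 and Ank3 (1.77-fold and 1.68-fold, adjusted p = 0.00339 and 0.00224) and the spectrin Sptbn1 (1.56-fold, adjusted p = 0.00861). None of the 8 passed in the corrected fit, which gave log2 values of 0.28 for Ank2, 0.23 for Ank3 and 0.13 for Sptbn1, and in which the list as a whole had 5 higher and 0 lower.

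Calcium cycling had 15 of 46 genes higher and 1 lower (median 0.23; 15 and 0 without wild type 2 and 11 and 4 in the corrected fit). In the release unit 6 of 14 rose: Ryr2, the release channel of the sarcoplasmic reticulum, lies 0.48 Mb from Actn2 and rose 2.18-fold to 2798, 2450 and 2164 CPM from 1275 and 992 CPM (log2 1.12, SE 0.17, adjusted p = 0.00133, edgeR; 0.57 in the corrected fit). Casq2, the calcium-storing calsequestrin, rose 2.04-fold from 705 and 466 CPM to 1188, 1104 and 1294 CPM (adjusted p = 0.00384), and Srl, sarcalumenin, 1.88-fold (adjusted p = 0.00261). The 3 rises were stable. Asph, whose products include junctin, rose 1.704-fold (adjusted p = 0.00637) and did not pass in the corrected fit (adjusted p = 0.284). Among the genes of calcium entry, the channel subunit Cacna2d1 rose 2.41-fold (adjusted p = 0.00467; log2 1.27, and 0.56 in the corrected fit, adjusted p = 0.0868), while the pore subunit Cacna1c had a log2 value of -0.08 and did not pass; in the corrected fit it was lower (-0.61, adjusted p = 0.0223).

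In calcium removal 5 of 12 rose and 0 fell. Besides Atp2a2, its inhibitor Pln was higher in each homozygous heart (7041, 7960 and 8057 CPM against 4564 and 4415 CPM, log2 0.78, SE 0.14, adjusted p = 0.00335, edgeR). Slc8a1, the sodium-calcium exchanger, rose from 209 and 180.2 CPM to 707, 625 and 619.7 CPM (3.34-fold, adjusted p = 0.000148), and its log2 value went from 1.74 to 0.71 in the corrected fit. Atp2b1, a plasma membrane calcium pump, rose 2.26-fold (adjusted p = 0.000398; log2 1.18, and 0.54 in the corrected fit). These 4 rises were stable. Of the kinases and phosphatases, Ppp1r3a, the glycogen-targeting subunit of protein phosphatase 1, rose 3.88-fold from 128 and 87.7 CPM to 414, 395 and 444 CPM (adjusted p = 0.00017) and was stable, with a log2 value of 1.96, and 1.12 in the corrected fit. Camk2d, the main cardiac calmodulin kinase, rose 1.78-fold (adjusted p = 0.00566) and did not pass in the corrected fit (adjusted p = 0.112).

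Autonomic receptor signalling had 12 of 44 genes higher and 2 lower (median 0.33; 10 and 1 without wild type 2 and 8 and 1 in the corrected fit). Of the 12 receptors, Chrm2 was the 1 that passed. Adrb1, the main cardiac beta-adrenergic receptor, measured 33.3, 18.7 and 18.8 CPM against 18.5 and 8.32 CPM, so that the lower homozygous values were scarcely above wild type 1, and did not pass (log2 0.82, SE 0.35, adjusted p = 0.11, edgeR). Downstream, Prkar2a, a regulatory subunit of protein kinase A, rose 3.43-fold from 52.8 and 30.4 CPM to 145, 139.6 and 143 CPM (adjusted p = 0.000372) and Adcy9, an adenylyl cyclase, 2.2-fold (adjusted p = 0.00135). Akap6, which anchors the kinase at the nuclear envelope, rose 2.71-fold (adjusted p = 0.00286) and missed the threshold in the corrected fit (log2 0.63 against 1.44, adjusted p = 0.0575).

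The phosphodiesterases, which break down cyclic nucleotides, were uneven. Pde3a, the target of cardiotonic drugs such as milrinone, rose 6.04-fold, from 17.4 and 12.8 CPM to 84.1, 86.2 and 102 CPM (log2 2.59, SE 0.20, adjusted p = 5.60e-05, edgeR; 1.79 in the corrected fit), and was the stable member of the group. Pde1c rose 2.36-fold (adjusted p = 0.00448), Pde7b rose 2.08-fold (adjusted p = 0.0152) and Pde9a fell by 1.39 on the log2 scale (adjusted p = 0.00613). Pde1c and Pde7b did not pass in the corrected fit (log2 0.55 and 0.78, adjusted p = 0.0607 and 0.0714), and Pde7b and Pde9a did not pass without wild type 2 (adjusted p = 0.131 and 0.088). The other 10 members, among them Pde4d (log2 0.34) and Pde5a (-0.03), did not pass.

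Among genes of membrane excitability, 10 of 31 were higher and 1 lower (median 0.39; 3 and 1 without wild type 2 and 9 and 0 in the corrected fit). Of the rises, 6 were in the group of 8 inward rectifier and ATP-sensitive potassium channel genes (median 0.83), which hold the resting potential and shorten the action potential. Kcnj5 and Kcnj3 encode the channel that muscarinic receptors open in atrial and nodal cells. Kcnj5 measured 101, 88.7 and 92.99 CPM against 46.4 and 35.2 CPM (log2 1.21, SE 0.15, adjusted p = 0.000539, edgeR) and was stable. Kcnj3 measured 70.4, 96.2 and 80.8 CPM against 40.2 and 34.2 CPM (log2 1.15, adjusted p = 0.00539) and missed the threshold without wild type 2 (adjusted p = 0.066). Abcc9, the sulfonylurea receptor of the ATP-sensitive channel, rose 2.09-fold from 236 and 188 CPM to 469, 436 and 425 CPM (adjusted p = 0.00178) and was stable. Kcnj2, the main ventricular inward rectifier, had values of 76.7, 35.2 and 46.5 CPM against 21.8 and 9.46 CPM that did not overlap but were widely spread (log2 1.76, SE 0.42, adjusted p = 0.0162, 0.131 without wild type 2 and 0.0873 in the corrected fit). Without wild type 1 its log2 value was 2.48.

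Hcn4, the pacemaker channel of the sinus node, rose from 5.01 and 1.46 CPM to 10.3, 8.71 and 9.21 CPM (log2 1.55, adjusted p = 0.0325, edgeR) and did not pass without wild type 2 (0.94, adjusted p = 0.107); without wild type 1 the value was 2.7. Fxyd1, phospholemman, which regulates the sodium pump, fell by 0.68 (adjusted p = 0.00476) with 0.06 in the corrected fit.

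Of 33 cardiac transcription regulators 15 were higher and 3 lower (median 0.44; 11 and 2 without wild type 2 and 14 and 0 in the corrected fit). Prox1, a homeodomain factor of heart and lymphatic cells, rose from 9.21 and 10.3 CPM to 40.1, 38.2 and 33.8 CPM (log2 1.94, SE 0.19, adjusted p = 0.000229, edgeR; 1.34 in the corrected fit). Tead1, the DNA-binding partner of YAP, rose 2.51-fold (adjusted p = 0.000927). Myocd, the SRF coactivator myocardin, rose 2.52-fold (adjusted p = 0.00102), and Tbx20, a T-box factor, 2.42-fold (adjusted p = 0.00146). All 4 were stable, though in the corrected fit Tead1 went from 1.33 to 0.72 and Tbx20 from 1.27 to 0.53 on the log2 scale. The core factors Gata4 and Nkx2-5 had log2 values of 0.44 and -0.15 and did not pass; Gata4 passed in the corrected fit (0.66, adjusted p = 0.0152).

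Of the 17 metabolic regulators 9 rose and 1 fell. Nrip1, a nuclear receptor corepressor that limits oxidative metabolism, rose 4.85-fold from 4.67 and 5.16 CPM to 26.9, 23.04 and 21.6 CPM (log2 2.28, SE 0.19, adjusted p = 9.46e-05, edgeR; 1.63 in the corrected fit). The estrogen-related receptors Esrrg and Esrrb, which drive mitochondrial genes, rose 2.61-fold and 1.96-fold (adjusted p = 0.000237 and 0.00102). These 3 were stable, and the values of Esrrg were 67.8, 65.4 and 76.02 CPM against 26.9 and 26.6 CPM. Their relative Esrra had a log2 value of -0.04 and did not pass. Gabpa, an ETS factor of nuclear-encoded mitochondrial genes, rose 1.75-fold (adjusted p = 0.00224) and did not pass in the corrected fit (adjusted p = 0.155).

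Pyruvate dehydrogenase, which turns pyruvate into acetyl-CoA, and its regulators had 8 of 14 genes higher and 0 lower (median 0.74; 7 and 0 without wild type 2 and 9 and 0 in the corrected fit), and 7 of the 8 were stable. Pdha1, the X-linked catalytic subunit, was at 1164, 1064 and 1170 CPM against 447 and 249.8 CPM and rose 3.25-fold (log2 1.7, SE 0.22, adjusted p = 0.000674, edgeR; 1.37 without wild type 2). Dld, the shared E3 subunit, rose 2.47-fold from 336 and 239 CPM to 695, 699.5 and 735 CPM (adjusted p = 0.000607). Pdk1, a kinase that switches the complex off, rose 2.09-fold from 140.4 and 155 CPM to 297, 309.8 and 319 CPM (adjusted p = 0.000403). Pdp2, a phosphatase that switches the complex back on, rose 4.14-fold (adjusted p = 0.00301), so that stable rises were found in subunits and in regulators of opposite action. The carriers Mpc1 and Mpc2, which bring pyruvate into mitochondria, had log2 values of 0.27 and -0.13 and did not pass.

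In the AMP and adenosine group 5 of 12 rose and 2 fell. Prkaa2, the catalytic alpha 2 subunit of AMP-activated kinase, rose 3.73-fold from 81.7 and 62.6 CPM to 271, 267 and 269.6 CPM (log2 1.901, SE 0.15, adjusted p = 8.19e-05, edgeR; 1.14 in the corrected fit). Ak4, a mitochondrial adenylate kinase, rose 2.23-fold (adjusted p = 0.000649), and Adk, adenosine kinase, 1.61-fold (adjusted p = 0.00842). With Nt5c1a these were the 4 stable members. In the corrected fit the whole list of 26 genes had 13 higher and 0 lower, beside 8.35% and 5.64% of all genes.

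Insulin and FoxO signalling had 14 of 24 genes higher and 1 lower (median 0.51; 9 and 0 without wild type 2 and 8 and 0 in the corrected fit). Foxo3 had the largest rise of the list, and its relative Foxo4 rose 1.45-fold from 71.2 and 71.7 CPM to 102, 97.8 and 111 CPM (adjusted p = 0.00866, edgeR); Foxo1 had a log2 value of 0.16 and did not pass. Sesn3, a FoxO target of the sestrin family, rose from 2.43 and 1.94 CPM to 9.83, 12.1 and 9.56 CPM (log2 2.27, SE 0.26, adjusted p = 0.000398; 1.61 in the corrected fit). Fbxo32, the ubiquitin ligase atrogin-1, another FoxO target, rose 2.37-fold (adjusted p = 0.00527). Upstream, Pdpk1, which activates AKT, and Pik3r1, a regulatory subunit of PI3-kinase, rose 2.31-fold and 2.701-fold (adjusted p = 0.0005 and 0.00338). All of these calls were stable, Foxo3 included. Insr, the insulin receptor, rose 1.66-fold (adjusted p = 0.005), with a log2 value of 0.15 in the corrected fit that did not pass (adjusted p = 0.54).

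Among 12 muscle ubiquitin ligase genes 7 rose and 2 fell (median 0.88; 6 and 0 without wild type 2 and 7 and 1 in the corrected fit), and 5 of the 7 rises were stable. Fbxo40, an F-box protein of striated muscle, was at 172, 136 and 165 CPM against 37.7 and 19.4 CPM and rose 5.53-fold (log2 2.47, SE 0.25, adjusted p = 0.000307, edgeR). Kbtbd12, a kelch protein, rose 2.76-fold (adjusted p = 0.00206) and Asb15, an ankyrin repeat adaptor, 2.03-fold (adjusted p = 0.00419). Trim63, the ligase MuRF1, rose 1.66-fold from 196 and 116 CPM to 289, 222 and 268 CPM (adjusted p = 0.0332) but did not pass without wild type 2 (adjusted p = 0.164). Of 15 chaperones 4 rose and 2 fell. Smyd1, a methyltransferase that works with myosin chaperones, rose 1.68-fold (adjusted p = 0.00651) and was the stable one. Hspa4l, an HSP110 family member, rose 2.51-fold from 29.4 and 33.2 CPM to 80.95, 76.6 and 78.1 CPM (adjusted p = 0.000371) with a log2 value of 0.44 in the corrected fit (adjusted p = 0.123).

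**Figure D3:**
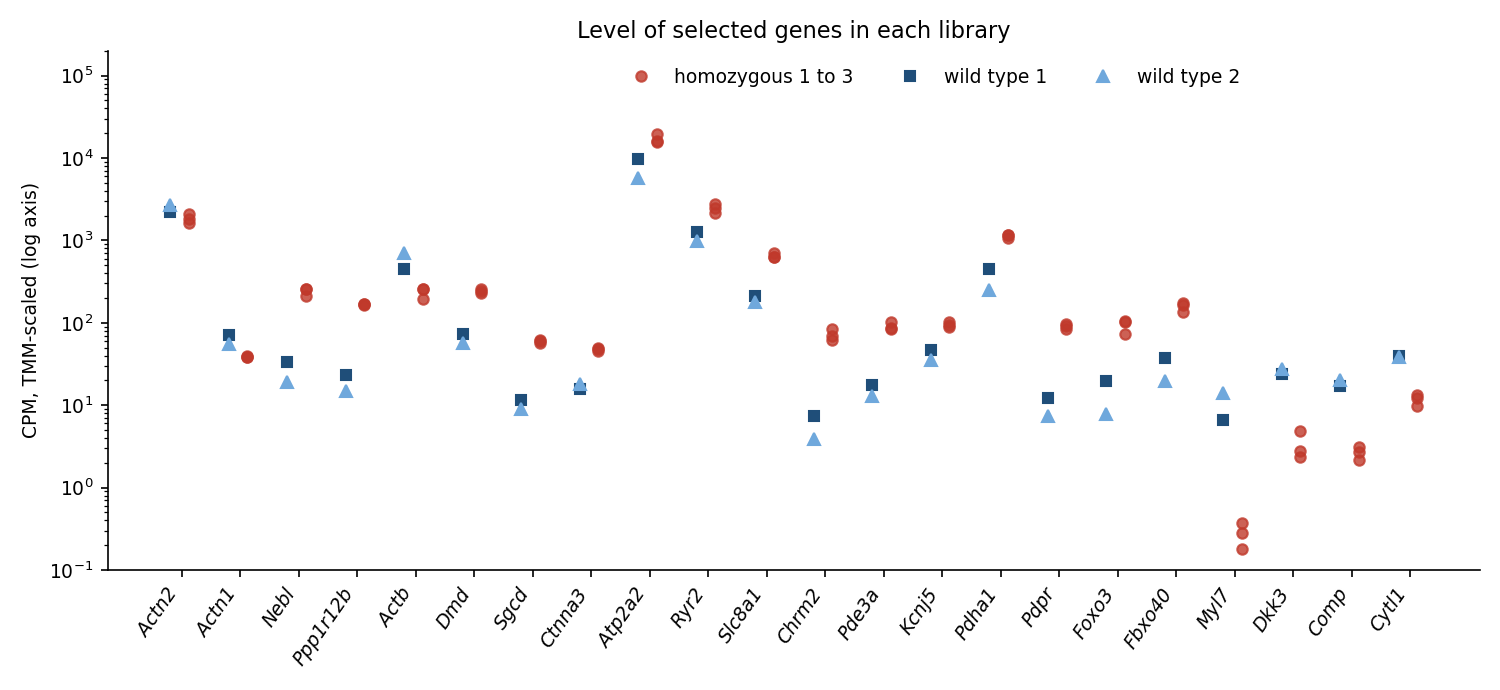
CPM (log axis) of 22 genes in each of the 5 libraries: red circles are the 3 homozygous hearts, the dark square is wild type 1 and the light triangle wild type 2. The homozygous points lie above both wild-type points from Nebl to Fbxo40 except for Actb, and below them for Actn1, Actb, Myl7, Dkk3, Comp and Cytl1; for Actn2 they lie close below wild type 1.

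Of 14 muscle splicing regulators 5 rose and 1 fell (median 0.26; 6 and 0 without wild type 2 and 1 and 2 in the corrected fit). Qk, quaking, rose 2.29-fold from 325 and 272 CPM to 627, 715 and 706 CPM (log2 1.195, SE 0.16, adjusted p = 0.000777, edgeR) and was the stable one (0.41 in the corrected fit). Mbnl1, Mbnl2 and Celf1, splicing factors whose balance shifts during heart maturation, rose 1.53-fold, 1.76-fold and 1.596-fold (adjusted p = 0.00762, 0.00274 and 0.00384), and none passed in the corrected fit (log2 -0.05, 0.27 and 0.14, adjusted p = 0.804, 0.203 and 0.403). Of 12 long noncoding RNAs, 2 were higher and 4 lower. Neat1, the RNA core of paraspeckles, was high in wild type 2 alone: it had 1204, 1315 and 1288 CPM against 1394 and 4444 CPM, fell by 1.202 (adjusted p = 0.0476) and had -0.10 without wild type 2 (adjusted p = 0.787) and -1.8 without wild type 1. Mhrt, which is transcribed antisense to the myosin heavy chain genes, fell from 85.3 and 98.9 CPM to 38.3, 53.8 and 43.9 CPM (adjusted p = 0.00165), but the strand setting of the counts is not given, so its reads cannot be told apart from those of Myh7.

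Circadian clock genes went both ways, 3 of 18 higher and 4 lower (median -0.04; 2 and 0 without wild type 2 and 1 and 0 in the corrected fit). Rora, a nuclear receptor that activates Arntl, rose 2.65-fold from 31.04 and 25.9 CPM to 67.1, 82.3 and 76.8 CPM (adjusted p = 0.000283, edgeR) and was the stable one, with a log2 value of 1.41, and 0.53 in the corrected fit. Clock rose 2.01-fold (adjusted p = 0.000672), with a log2 value of 0.17 in the corrected fit (adjusted p = 0.39). Per1 fell by 0.65 (adjusted p = 0.0122) and passed neither without wild type 2 (adjusted p = 0.0906) nor in the corrected fit (adjusted p = 0.0551).

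The groups with the most falls were those of short, abundant transcripts. Of 77 cytosolic ribosomal protein genes 0 were higher and 57 lower (median -0.86). In the corrected fit 20 of 75 were lower (median -0.39), without wild type 2 12 of the 77 were lower, and 8 were stable. Rpl6, of the large subunit, went from 409.9 and 537 CPM to 264, 251 and 259.5 CPM (log2 -0.87, SE 0.14, adjusted p = 0.00173, edgeR), and Rpl28 from 349 and 665 CPM to 189, 189 and 225 CPM (log2 -1.33, adjusted p = 0.00311). Both were stable, and for both wild type 2 was the highest of the 5 libraries. In the corrected fit the log2 values were -0.53 for Rpl6 and -0.90 for Rpl28. These genes have many pseudogenes, and how multi-mapping reads were treated is not given.

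Respiratory chain subunits had 38 of 78 genes lower and 3 higher (median -0.59). The corrected fit called 5 higher and 5 lower (median -0.11), and without wild type 2 1 was higher and 7 lower. Atp5d, a subunit of ATP synthase, went from 968 and 1398 CPM to 647, 557 and 609 CPM (log2 -0.97, adjusted p = 0.00259, edgeR; -0.38 in the corrected fit, adjusted p = 0.0894). Ndufs1, the largest subunit of complex I, went the other way, from 534 and 452 CPM to 869, 788 and 882 CPM (log2 0.78, SE 0.14, adjusted p = 0.00339), and was the 1 stable member of the list. Its annotated transcript has 2661 bases and that of Atp5d 1410.

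Zinc finger genes whose symbol starts with Zfp had 66 of 332 higher and 20 lower (median 0.19; 46 and 2 without wild type 2), and the corrected fit called 15 of 326 higher and 17 lower (median -0.03). Zfp652 rose 2.92-fold from 10.3 and 11.9 CPM to 30.9, 34.9 and 31.4 CPM (adjusted p = 0.000173, edgeR; log2 1.55, and 0.88 in the corrected fit) and was stable, whereas Zfp292 and Zfp148 rose 2.19-fold and 2.08-fold (adjusted p = 0.000212 and 0.000398) and did not pass in the corrected fit (log2 0.31 and 0.17, adjusted p = 0.112 and 0.403). Of 23 tested clustered histone genes, whose main transcripts carry no poly(A) tail, 2 were higher and 1 lower. Hist1h1e, a linker histone, had 1.83, 2.65 and 3.099 CPM against 0.578 and 0 CPM (adjusted p = 0.0242), low levels that make its fold change uncertain.

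**Figure D4:**
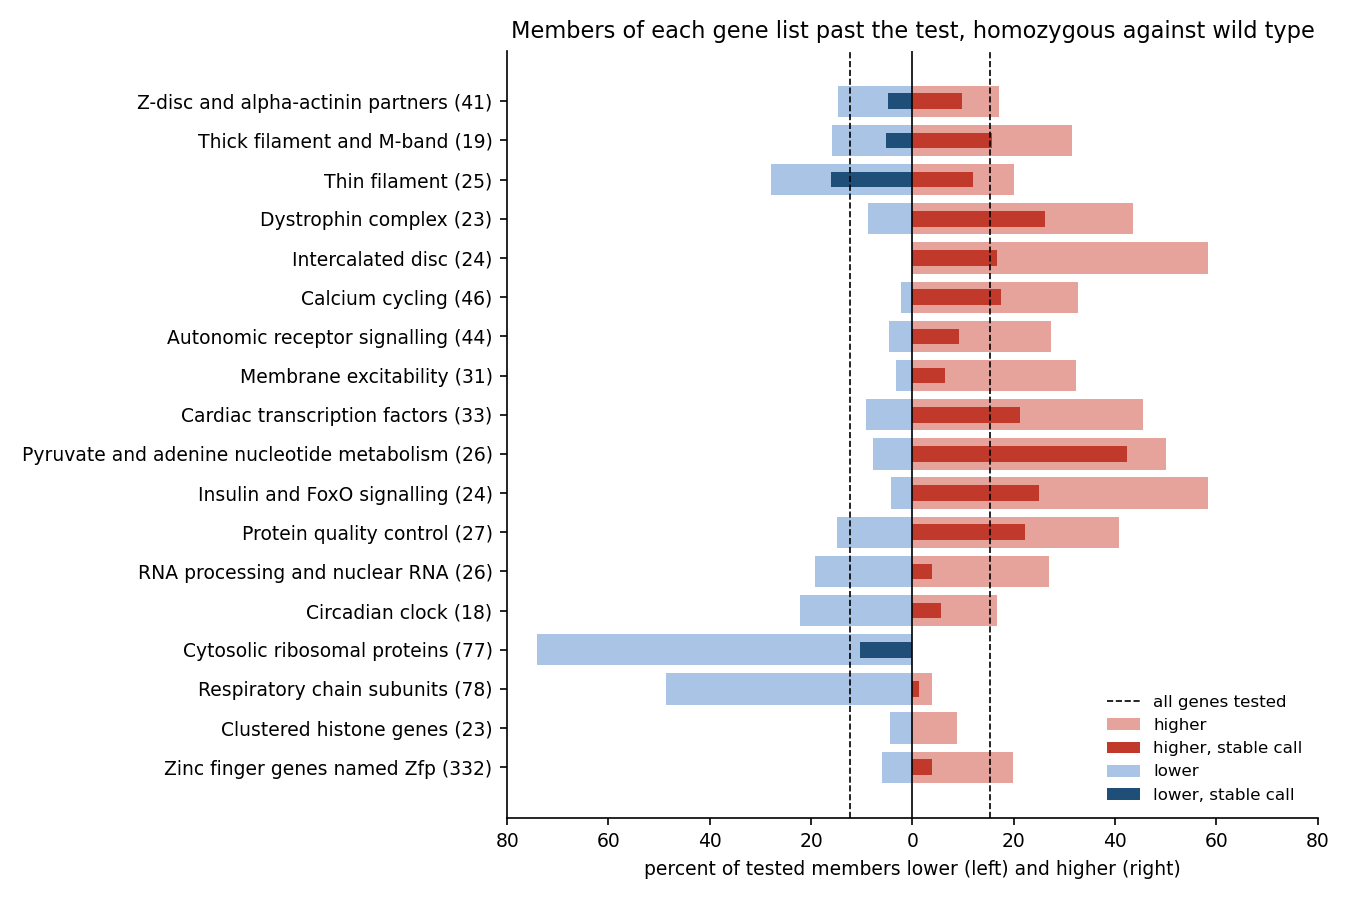
Percent of the tested members of each list (number in brackets) that were lower (bars to the left) and higher (bars to the right) in homozygous hearts; narrow dark bars are stable genes and dashed lines are all genes tested, 12.4% lower and 15.3% higher. The longest bar to the left is that of the cytosolic ribosomal proteins (57 of 77), and the longest stable bar to the right is that of pyruvate and adenine nucleotide metabolism (11 of 26).

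Markers of cell types that heart tissue can hold were read next. Their counts stand beside the 15.3% of all tested genes that were higher and the 12.4% that were lower. In lists this short, a difference of a few genes from these shares is not read as a result about a cell type. Ventricular muscle markers were abundant in all 5 libraries, with a summed level of 52669 to 60792 CPM in homozygous hearts against 65164 and 77747 CPM, and 2 of 10 rose and 2 fell. Lbh, a ventricular transcription cofactor, rose from 356 and 284 CPM to 598, 618 and 659 CPM (adjusted p = 0.00247, edgeR). The summed level of 12 valve and tendon-like markers was 41.65, 44.56 and 38.63 CPM in homozygous hearts against 145.7 and 141 CPM in wild-type hearts. In this list 0 genes rose and 11 of 12 fell (median -2.28), 9 fell in the corrected fit, 6 without wild type 2, and 5 were stable. The groups lay far apart, and wild type 1 was as high as wild type 2. The members were chosen with earlier results of these data known, so these counts and sums are no independent test.

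Within the valve and tendon-like list, Cytl1, a secreted cytokine-like protein of cartilage, fell from 39.3 and 38.3 CPM to 13.2, 12.1 and 9.89 CPM (log2 -1.73, SE 0.16, adjusted p = 0.000158, edgeR). Thbs4, a thrombospondin of tendon, and Chad, the cartilage protein chondroadherin, fell by 1.75 and 2.79 on the log2 scale (adjusted p = 0.00129 and 0.00242), which with Comp, Fmod and Cytl1 makes the 5 stable genes; without wild type 2 the value of Chad was -2.17 (adjusted p = 0.0261). Tnmd, tenomodulin, a marker of mature tendon cells, had 0 counts in the 3 homozygous libraries and 16 and 18 counts in the wild-type libraries. With a floor of 3 counts over the homozygous group, it was at least 25.6-fold lower, and it did not pass without wild type 2 (adjusted p = 0.0725). Wif1 (log2 -2.95, SE 0.84, adjusted p = 0.0307), Hapln1 (-3.93, SE 1.19, adjusted p = 0.0324) and Prg4 (-1.88, SE 0.60, adjusted p = 0.0488) fell with wide errors and did not pass without wild type 2 (-3.56, -3.84 and -1.67, adjusted p = 0.0597, 0.107 and 0.303). In the corrected fit Hapln1 passed (-4.61, adjusted p = 0.0274), and Wif1 and Prg4 did not (adjusted p = 0.0588 and 0.0712). Other single libraries moved these values too: Wif1 had -1.75 without wild type 1 and -4.13 without homozygous 2, and Hapln1 -5.78 without homozygous 3. For Prg4 the heterozygous hearts, whose spread enters the fit, were at 21.01, 4.82 and 4.515 CPM. Sox9 fell to 2.93, 1.85 and 1.62 CPM from 4.82 and 4.64 CPM (adjusted p = 0.0495), also not past the test without wild type 2 (adjusted p = 0.148). Scx, the transcription factor that defines tendon lineages, had 5.99, 8.38 and 9.33 CPM against 9.18 and 9.84 CPM and did not pass (log2 -0.27, adjusted p = 0.463).

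Of 12 tested atrial markers 2 rose and 5 fell (0 and 4 without wild type 2, 1 and 4 in the corrected fit), and the summed level was 644.7 to 896.8 CPM in homozygous hearts against 946.7 and 1297 CPM. Myl7, the atrial regulatory light chain, had 6.59 and 14.2 CPM in wild-type hearts, low beside the 9128 and 19551 CPM of Myl2. It was nearly absent from the homozygous hearts, with 0.366, 0.279 and 0.177 CPM (log2 -5.23, SE 0.49, adjusted p = 0.000157, edgeR), and the fall was stable. Without wild type 2 the log2 value was -4.54, and in the corrected fit -4.46 (adjusted p = 0.000772 and 0.000424). Sln, another listed atrial marker, was also low, with 0, 0.105 and 0 CPM in homozygous hearts against 2.93 and 5.27 CPM. Bmp10 had 0 CPM in each homozygous heart and 0 and 0.139 CPM in wild-type hearts. The 2 atrial markers that rose were Kcnj3, given above, and Tbx5 (log2 0.59). Nppa, the natriuretic peptide gene of atria, ranged from 102.1 to 362.4 CPM in homozygous hearts against 282.6 and 514.3 CPM, so the groups overlapped. Together with Clu, at 395.6 to 407.4 CPM against 514.9 and 609.1 CPM, Nppa made up most of the summed level. How much atrium and valve each sample held is not given, and its part in these values was not tested.

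Fibroblast markers had 0 of 12 higher and 3 lower, with the same counts in the corrected fit. Their summed level was 2561 to 3409 CPM in homozygous hearts against 5229 and 4312 CPM. Pcolce, an enhancer of procollagen processing, fell from 120.1 and 97.3 CPM to 63.8, 58.7 and 48.99 CPM (log2 -0.93, adjusted p = 0.00162, edgeR) and did not pass in the corrected fit (-0.39, adjusted p = 0.124). Endothelial markers had 0 of 12 higher and 4 lower (0 and 2 in the corrected fit). Among the 4 were Egfl7 (log2 -0.96, adjusted p = 0.00247) and Esam (-0.77, adjusted p = 0.00553), which did not pass in the corrected fit (-0.37 and -0.44, adjusted p = 0.106 and 0.0795). Of the smooth muscle and pericyte markers 1 of 12 rose, Abcc9, and 4 fell (1 and 5 in the corrected fit). Cnn1, calponin 1, fell from 4.93 and 14.7 CPM to 1.53, 0.505 and 0.59 CPM (log2 -3.51, adjusted p = 0.00581). Its value was -2.48 without wild type 2 (adjusted p = 0.056) and -4.16 without homozygous 1. Of 12 macrophage markers 2 rose and 2 fell (median 0.02, and 1 and 0 in the corrected fit). Adgre1, which encodes F4/80, rose from 7.06 and 9.39 CPM to 15.8, 15.8 and 16.2 CPM (adjusted p = 0.00738). C1qa, a complement subunit, fell from 114 and 122 CPM to 53.5, 67.7 and 71.5 CPM (adjusted p = 0.00269). C1qa did not pass in the corrected fit (log2 -0.88, and -0.23 corrected, adjusted p = 0.283). Of 7 tested skeletal muscle markers 0 rose and 1 fell (median -1.30). Nearly all of their summed level was Acta1, the skeletal actin that heart also expresses, at 306, 424 and 363 CPM against 859.7 and 938 CPM. The groups did not overlap, but Acta1 did not pass (adjusted p = 0.337, edgeR), in a fit that also takes in the spread of the heterozygous hearts. Of 6 tested adipocyte markers 0 rose and 2 fell (median -2.84), both without a call when wild type 2 was left out. The adipocyte gene Cfd was high in wild type 2 alone (0.305, 0.105 and 0 CPM against 1.08 and 11.1 CPM). No lymphocyte, neutrophil, erythroid or lung marker passed, and thymus markers had too few counts to be tested. The 4 adult globin genes, alpha and beta, each have a near-identical copy among them and are listed at 0 in all 5 libraries. The part of cell composition in the gene groups above was not tested.

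Across the 14160 protein-coding genes tested, the calls followed transcript length and base composition. In the quintile with the shortest annotated transcripts (312 to 1805 bases) 2.97% of genes were higher and 28.7% lower, and in the quintile with the longest (from 5150 bases) 36.5% were higher and 3.07% lower. The median log2 fold change went from -0.45 to 0.38 between these quintiles. In the quintile with the lowest GC content (32.62 to 44.44%) 36.2% were higher and 1.77% lower, and in the quintile with the highest (from 56.06%) 3.04% and 28.7%. The trend was present against each wild-type library: between the shortest and longest quintiles the median log2 difference from wild type 1 went from -0.26 to 0.29, and that from wild type 2 from -0.48 to 0.46. Titin, dystrophin, Ryr2 and the ankyrins have long transcripts, and ribosomal proteins, troponins and small respiratory subunits short ones.

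**Figure D5:**
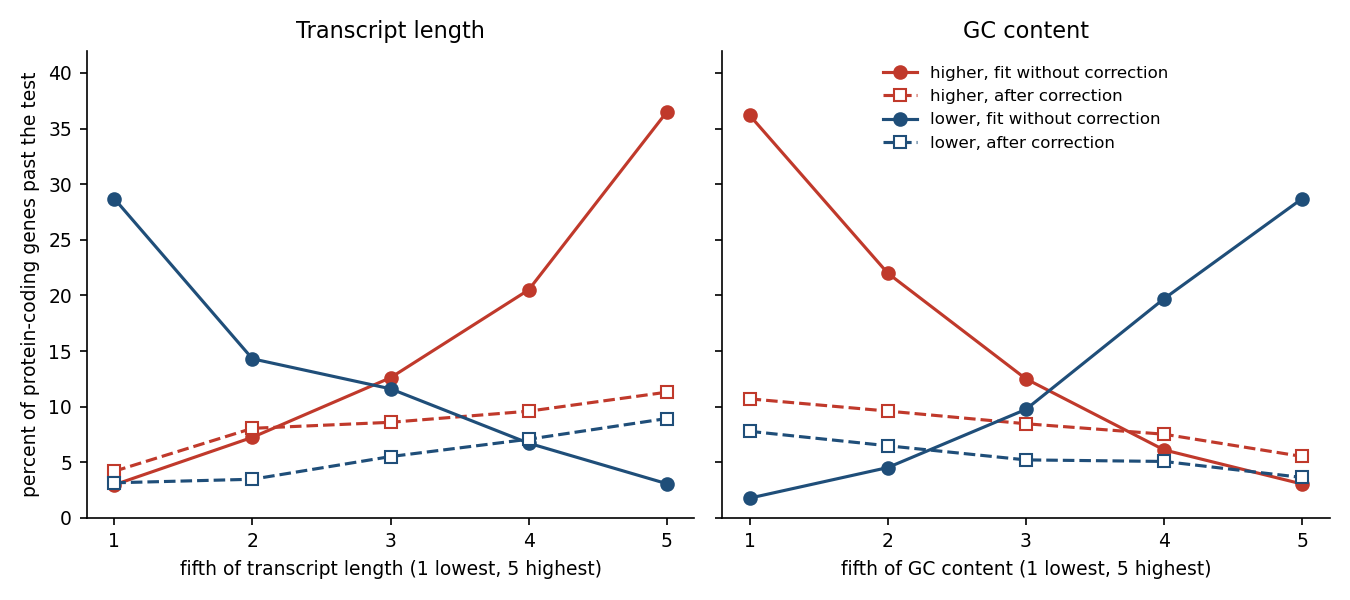
Percent of protein-coding genes past the test in each quintile of transcript length (left) and of GC content (right): red is higher and blue lower in homozygous hearts, filled circles are the fit without correction and open squares the corrected fit. Higher calls go from 2.97% to 36.5% over the quintiles of length and from 36.2% to 3.04% over those of GC content, and after the correction they stay between 4.19% and 11.3%.

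After the correction the shortest quintile had 4.19% of genes higher and 3.15% lower, and the longest 11.3% and 8.93%, with medians of -0.04 and -0.02. Of the classes of gene, 28.8% of protein-coding, 13.3% of 195 lincRNA and 6.98% of 215 antisense genes passed. By chromosome the share of higher genes ran from 8.64% on chromosome 7 to 21.5% on chromosome 18, and that of lower genes from 5.93% on chromosome 18 to 20.2% on chromosome 17. Chromosome 13, which holds Actn2, had 21.2% higher and 6.29% lower, and 16.1% called in either direction in the corrected fit.

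Genes near Actn2 on chromosome 13 were looked at for a change in the enhancer's neighbourhood. Within 2 Mb, 5 of 15 tested genes were higher and 0 lower, 33.3% beside 15.3% higher of all genes and 21.2% of chromosome 13, and in the corrected fit 1 was higher, Ryr2. From 2 to 5 Mb away 2 of 14 were higher and 0 lower. Besides Ryr2, the 4 higher genes within 2 Mb were Mtr (log2 1.07, adjusted p = 0.0158, edgeR; 0.145 without wild type 2), the methionine synthase gene, Lyst (0.82, adjusted p = 0.00416), Ggps1 (0.48, adjusted p = 0.0401) and Arid4b (0.90, adjusted p = 0.00111). Heatr1 at 0.11 Mb, Lgals8 at 0.15 Mb and Edaradd at 0.19 Mb from Actn2 had log2 values of -0.18, 0.13 and -1.81 and did not pass.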

How the data were processed

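Raw counts per gene were taken as the authors deposited them, 1 table for the 8 libraries. Per the submitters' processing notes, reads were trimmed with Trimmomatic 0.36, aligned to mm10 with HISAT2 and counted with featureCounts of Subread, and DESeq2 was used. Which annotation and strand option were used, and whether multi-mapping reads counted, is not given. Totals ran from 22230090 to 55902737 counts.

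Genes were kept with edgeR's filterByExpr, scaled by TMM and fitted with the robust quasi-likelihood method (edgeR 4.0.16, R 4.3.3) on 8 libraries, with genotype as the term. P-values were adjusted by Benjamini-Hochberg, with a threshold of 0.05. The corrected fit added an offset per gene and library, from splines of 4 degrees of freedom on GC content, 3′ UTR length and transcript length (GENCODE vM21, 98.5% of symbols matched). Alternatives were DESeq2 1.42.0, limma-voom 3.58.1, other scalings and filters, the 5 libraries alone, a replicate block, a sex term and each library left out. The procedure was tested on simulated data.

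Genes are named by rule: the 12 largest stable changes of at least 2-fold and 5 CPM in each direction, the 10 most abundant changes of at least 1.5-fold in each direction, up to 4 changes per role of each list, the alpha-actinins, and markers. A few other members and neighbours of Actn2 were named after their values were seen. The gene lists, the marker lists and their members were chosen with earlier results of these data known. A few genes that the rule names are not reported here.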

Additional observations from a re-analysis of the deposited data

How the results depend on the processing

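The 4180 calls became 1973 in the corrected fit (1178 higher, 795 lower), 739 in the corrected fit without wild type 2 (551 higher, 188 lower) and 2079 in the corrected fit with a sex term (1240 higher, 839 lower), the last chosen after seeing the data. Of the calls of the corrected fit, 1455 were shared in direction and 1 was opposite. Leaving out 1 library at a time gave 2135 (without wild type 2) to 5717 (without wild type 1) calls, 1573 to 3110 higher and 558 to 2607 lower. Without homozygous 1, 2 or 3 there were 2828, 2914 and 2564 calls, of which 1092, 1140 and 991 were lower. DESeq2 called 4874, limma-voom 4262 and the 5 libraries alone 3354. Deviations of same-numbered samples from their group means had r of 0.022 and 0.024. With 2 wild-type libraries these deviations mirror each other, so the values cannot decide whether samples were paired. With the replicate block 3328 genes passed (1975 higher, 1353 lower).

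Of 207 named genes, 187 passed and 70 passed in every one of the 21 alternatives that gave a value (Mhrt has none in the corrected fits); 11 changed sign in at least 1. In the corrected fit these were Sgca (0.0234), Ppp2ca (-0.213), Fxyd1 (0.0578), Mbnl1 (-0.0517) and Scx (0.385). In that fit without wild type 2 they were Actn2 (0.0189), Tnni3 (0.0608), Tpt1 (0.0427), Bin1 (0.1), Ppp2ca (-0.0929), Scx (0.292) and Cidea (0.107). In the corrected fit with a sex term they were Pdlim5 (-0.00233), Sgca (0.00332), Ppp2ca (-0.228), Fxyd1 (0.05), Mbnl1 (-0.0344) and Scx (0.362). The cause was not tested. With 2 wild-type libraries that differ from each other, the size of each fold change rests on their mean.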
